A study of Mus musculus with 10 samples.

Results

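The genes described here are 44 mouse genes of DNA replication and mitosis, chosen by name from the 55487 genes of the count tables. They comprise 24 mitotic genes, 11 replication genes and 9 other genes, among them *Ccne1*, *Ccne2*, *Ccnd1* and *E2f1*, which control the step from G1 into S phase. RNA sequencing counts were available for 10 libraries from mammary glands of 10-wk-old BALB/c females in diestrus. Mammary epithelial cells (MECs) were enriched by depletion of lineage-positive cells, and mammary gland macrophages were enriched by positive selection for F4/80, a macrophage surface protein. The wild-type (WT) mice were *Csf1r*-Cre negative and *Cebpb* fl/fl, and the mutant mice, *Cebpb*ΔM, were *Csf1r*-Cre positive and *Cebpb* fl/fl, so that both genotypes carried the floxed *Cebpb* alleles. *Csf1r*-iCre is active in cells that express the CSF1 receptor, so the recombination was aimed at myeloid cells and MECs were not its target. The labels name the mutant group as a knockdown of C/EBPb. MEC libraries carried the replicate numbers 1 and 3 in each genotype. Macrophage libraries carried the numbers 4 and 5 in WT and 4, 5, 6 and 7 in *Cebpb*ΔM.

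A dividing cell copies its DNA in S phase and separates the copies in mitosis. The *Mcm2* to *Mcm7* proteins form the helicase that opens the double helix, *Cdc6* and *Cdt1* load it onto replication origins, *Pcna* is the sliding clamp of the DNA polymerases, and *Rrm2* and *Tyms* make deoxynucleotides. Cyclins A and B with *Cdk1* drive entry into mitosis, the Aurora and Polo kinases organize the spindle, *Bub1* and *Bub1b* hold chromosome separation until every chromosome is attached, and *Cdc20* and *Ube2c* then trigger it through the anaphase-promoting complex. Replication genes are typically switched on by E2F factors late in G1, whereas mitotic genes peak in G2 and M through a promoter element called the cell cycle genes homology region (CHR) and nearby CCAAT boxes. In the adult mammary gland the epithelium proliferates with the estrous cycle, and tissue macrophages can also divide in place.

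The promoters are shown because the elements just named divide the mitotic from the replication genes in other systems. RefSeq promoter windows of 300 bases (GRCm38.p6) were matched by symbol for 36 of the 44 genes, of which 20 were mitotic, 10 were replication and 6 were other genes. The CHR core TTTGAA, searched on both strands, was in 15 of 20 mitotic windows, 1 of 10 replication windows and 0 of 6 other windows, against 17.8% of all 32544 windows. CCAAT was in 18, 7 and 4 of them, against 37.4% of all windows. The E2F letters TTTGGCGC, TTTCCCGC, TTTCGCGC or TTTGCCGC were in 1 mitotic, 6 replication and 1 other window, against 2.28% of all windows. The letters TTNNGNAA, a loose form of the site bound by C/EBP factors, were in 5 mitotic, 5 replication and 0 other windows, against 40.7% of all windows. A match describes the letters and is not a measured binding site. The windows below, 5′ to 3′ on the strand of the gene, belong to 3 mitotic genes, 2 replication genes and *Cdk18*, whose levels are described further on, and capitals mark CHR, CCAAT and E2F matches on either strand.
Ccnb2, chr9:70421505-70421804, minus strand: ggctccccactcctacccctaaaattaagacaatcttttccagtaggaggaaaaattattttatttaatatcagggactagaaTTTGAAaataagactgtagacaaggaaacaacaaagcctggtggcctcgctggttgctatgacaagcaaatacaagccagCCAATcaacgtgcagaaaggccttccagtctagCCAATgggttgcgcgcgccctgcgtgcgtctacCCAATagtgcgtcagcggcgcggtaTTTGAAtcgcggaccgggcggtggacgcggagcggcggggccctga
Plk1, chr7:122159185-122159484, plus strand: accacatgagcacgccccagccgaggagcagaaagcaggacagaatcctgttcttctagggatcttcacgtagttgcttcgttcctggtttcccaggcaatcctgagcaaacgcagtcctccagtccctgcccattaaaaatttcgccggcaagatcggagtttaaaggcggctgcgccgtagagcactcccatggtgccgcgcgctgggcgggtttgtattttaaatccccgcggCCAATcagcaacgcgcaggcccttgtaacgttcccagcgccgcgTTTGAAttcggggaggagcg
Cdc20, chr4:118437294-118437593, minus strand: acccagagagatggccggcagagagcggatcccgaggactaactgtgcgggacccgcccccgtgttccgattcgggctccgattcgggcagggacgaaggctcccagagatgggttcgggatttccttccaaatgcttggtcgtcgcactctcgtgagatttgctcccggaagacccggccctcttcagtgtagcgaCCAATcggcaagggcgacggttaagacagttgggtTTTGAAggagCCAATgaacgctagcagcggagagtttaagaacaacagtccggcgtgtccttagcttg
Mcm3, chr1:20820263-20820562, minus strand: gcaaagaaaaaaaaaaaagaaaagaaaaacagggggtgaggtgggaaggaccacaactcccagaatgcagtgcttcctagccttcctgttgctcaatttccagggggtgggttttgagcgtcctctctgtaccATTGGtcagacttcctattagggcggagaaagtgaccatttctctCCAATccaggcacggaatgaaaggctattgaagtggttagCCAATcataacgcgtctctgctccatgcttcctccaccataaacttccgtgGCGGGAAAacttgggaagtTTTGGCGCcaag
Mcm5, chr8:75109259-75109558, plus strand: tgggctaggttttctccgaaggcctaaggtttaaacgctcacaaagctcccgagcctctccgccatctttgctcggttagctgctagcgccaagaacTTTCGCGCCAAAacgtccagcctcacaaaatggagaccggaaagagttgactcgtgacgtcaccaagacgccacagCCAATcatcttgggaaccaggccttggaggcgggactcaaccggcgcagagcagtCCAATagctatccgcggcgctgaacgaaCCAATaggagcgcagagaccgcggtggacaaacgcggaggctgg
Cdk18, chr1:132139636-132139935, minus strand: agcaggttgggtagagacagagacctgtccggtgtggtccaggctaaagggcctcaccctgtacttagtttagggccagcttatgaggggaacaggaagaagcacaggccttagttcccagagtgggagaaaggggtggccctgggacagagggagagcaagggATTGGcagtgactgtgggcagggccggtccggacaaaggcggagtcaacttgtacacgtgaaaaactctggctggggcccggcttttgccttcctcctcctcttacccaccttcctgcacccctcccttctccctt
*Ccnb2* has 2 CHR and 3 CCAAT matches, *Plk1* has 1 of each, and *Cdc20* has 1 CHR and 2 CCAAT matches. *Mcm3* and *Mcm5* each have 3 CCAAT and 2 E2F matches and no CHR match, and the E2F matches of *Mcm5* overlap each other on opposite strands. *Cdk18* has 1 CCAAT match and none of the CHR or E2F letters.

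Library depth was 25310926 to 27008166 counts in MECs and 16935000 to 20174722 counts in macrophages. By depth alone, 3 counts correspond to 0.111 to 0.119 CPM (counts scaled to library size) and 0.149 to 0.177 CPM. The CPM values of genes given here are also scaled by TMM factors and differ slightly from this. The 3 counts of *Cenpf* in *Cebpb*ΔM macrophage 7, for example, are 0.186 CPM. All 44 genes passed the filter on low counts in both experiments. In WT macrophages 4 and 5, *Cebpb* itself had 13 and 15 counts. It had 16, 13, 5 and 4 counts in those labeled *Cebpb*ΔM 4 to 7. In CPM these were 0.681 and 0.747 in WT and 0.837, 0.652, 0.277 and 0.247 in *Cebpb*ΔM, all below 1 CPM. *Cebpb*ΔM 4 was above both WT libraries, so these low counts of the targeted gene do not separate the groups. In MECs it had 25 and 28 counts in WT and 69 and 42 in *Cebpb*ΔM. The study reported C/EBPβ protein as undetectable in bone marrow macrophages of mutant mice and absent from stained CSF1R-positive cells of the gland. Of 18 epithelial marker genes, 0 were at 0 throughout the macrophage libraries, where they summed to 11208 to 11662 CPM in WT and 6310 to 8764 CPM in *Cebpb*ΔM, against 34846 to 42197 CPM in MECs. The 15 macrophage markers summed to 9388 to 11006 CPM in WT and 12229 to 17835 CPM in *Cebpb*ΔM macrophage libraries, and to 241 to 412 CPM in MECs. The macrophage libraries therefore held RNA of both cell types, and neither sum overlapped between the genotypes. In such bulk samples, fewer cells of a type and less RNA per cell cannot be told apart. The labels do not say whether replicates came from separate animals, so P-values measure the spread between these libraries.

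Within a library, *Pcna* was the most abundant of the 44 genes per length. On the scale of CPM per kilobase of exon (RPKM), it measured 34.0 to 46.4 across the 10 libraries and ranked first in all but WT macrophage 4, where *Ccnb2* measured 49.4 RPKM and *Pcna* 44.4 RPKM. *Cenpf*, a very large kinetochore protein, was the lowest in all 4 MEC libraries, both WT macrophage libraries and *Cebpb*ΔM macrophage 7, at 0.0117 to 0.716 RPKM. *Ccnd1*, the cyclin D1 gene that couples growth signals to cell cycle entry, ranked second in all 4 MEC libraries at 25.3 to 31.8 RPKM. In the means of WT macrophages, the order after *Pcna* (39.2 ± 7.33 RPKM, SD, n = 2) was *Ccnb2* (37.7 ± 16.6), *Cdc20* (33.1 ± 11), *Ccnd1* (21.2 ± 6.23) and *Mcm3* (20.3 ± 3.93). The SDs of these neighbors span the gaps between them.

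In macrophages, most of the 44 genes had lower values in *Cebpb*ΔM than in WT, and the lowest values were mostly those of *Cebpb*ΔM libraries 6 and 7. Of the 24 mitotic genes, 23 had a log2 fold change below 0, with a median of −0.96. Of the 11 replication genes, 9 were below 0 with a median of −0.71, and of the 9 others, 7 were below 0 with a median of −0.67. The median over all 17772 genes tested was 0.00. None of the 44 genes passed an adjusted P of 0.05 in the quasi-likelihood (QL) test of edgeR, adjusted over all genes by the Benjamini–Hochberg (BH) method, and 0% of all genes passed. At an unadjusted P under 0.05, 6 genes were lower (*Ccnb2*, *Aurka*, *Plk1*, *Mcm3*, *Chtf18* and *Cdk18*) and 0 were higher, against 3.67% and 4.96% of all genes in these directions. The likelihood ratio test of edgeR called 1 of the 44, *Cdk18*, and 0.777% of all genes, and DESeq2 called the same 1 and 1.13% of all genes. The groups did not overlap for 10 genes, all lower in *Cebpb*ΔM (*Ccnb2*, *Ccnf*, *Cdc20*, *Bub1b*, *Aurka*, *Aurkb*, *Plk1*, *Mcm3*, *Chtf18* and *Cdk18*), where 9.08% of all genes were lower and 9.67% higher without overlap. Of these, *Ccnb2*, *Ccnf*, *Chtf18* and *Cdk18* were singled out by the study from these same libraries, which is not independent evidence of their direction.

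**Figure D1:**
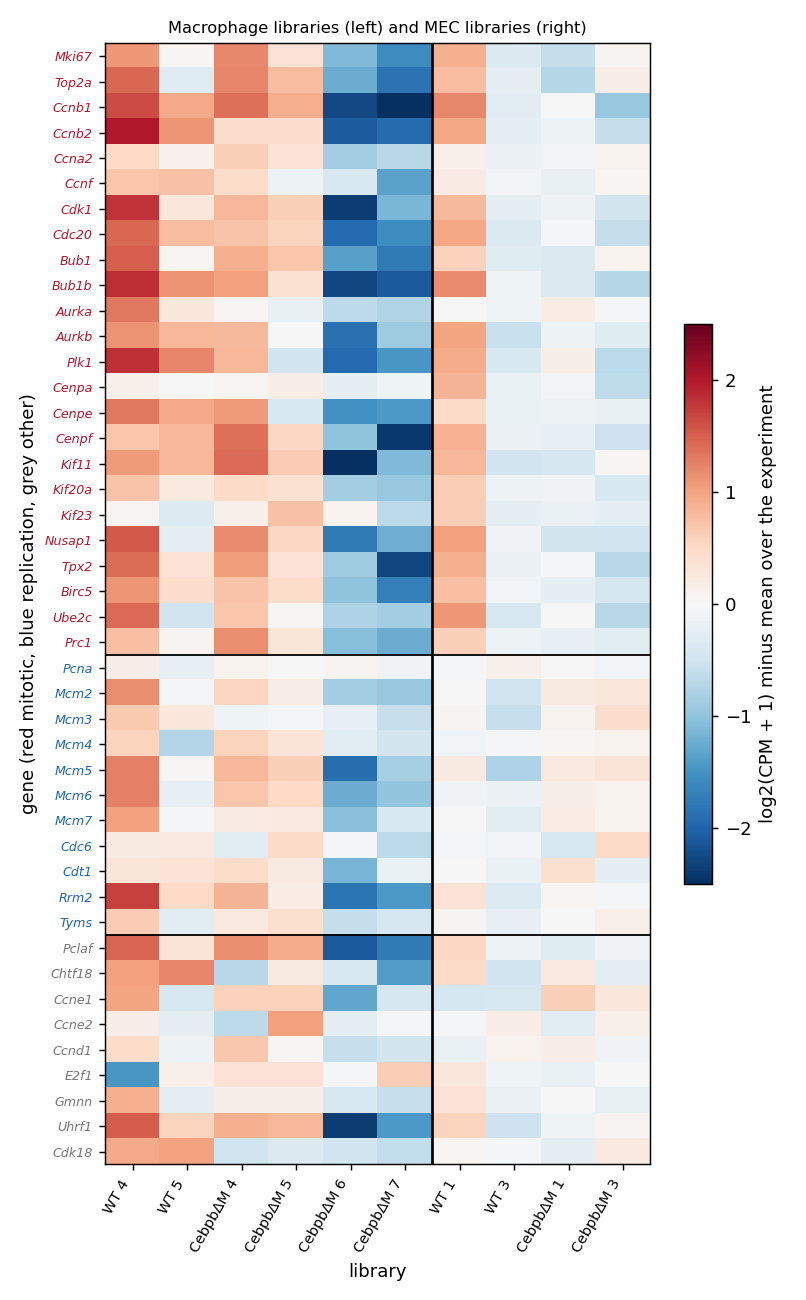
Heat map of log2(CPM + 1) of the 44 genes in each library, minus the gene's mean over the libraries of its experiment. Rows are genes in the order mitotic, replication and other, and columns are libraries, with macrophages on the left and MECs on the right of the vertical line. The mitotic block is lowest in *Cebpb*ΔM macrophages 6 and 7 and highest in WT macrophage 4 and WT MEC 1.

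Among the mitotic genes, *Ccnb2*, which encodes cyclin B2, measured 79.0 and 41.5 CPM in WT macrophages 4 and 5 and 25.9, 26.0, 3.72 and 4.27 CPM in *Cebpb*ΔM 4 to 7. *Plk1*, the Polo-like kinase of spindle assembly, measured 26.2 and 16.8 CPM in WT and 12.7, 4.51, 0.998 and 1.79 CPM in *Cebpb*ΔM. *Aurka*, the kinase of the spindle poles, measured 43.6 and 20.4 CPM in WT and 17.1, 14.6, 10.3 and 9.53 CPM in *Cebpb*ΔM. For each of these 3 genes both WT libraries lay above all 4 *Cebpb*ΔM libraries, and WT 4 was the highest. The log2 fold changes were −2.0 ± 0.76 (SE) for *Ccnb2*, −2.09 ± 0.81 for *Plk1* and −1.31 ± 0.35 for *Aurka*. Their adjusted P was 0.536, 0.537 and 0.468 in the QL test, with unadjusted P of 0.0291, 0.0315 and 0.0059. With replicates 4 and 5 of each genotype alone, the log2 fold changes were −1.20, −1.31 and −1.0.

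The checkpoint and exit genes *Bub1b*, *Cdc20* and *Aurkb* were also highest in WT 4 and lowest in *Cebpb*ΔM 6 and 7. *Bub1b*, the checkpoint kinase BubR1, measured 34.8 and 20.5 CPM in WT and 19.2, 11.9, 1.05 and 1.30 CPM in *Cebpb*ΔM. *Cdc20*, the activator of the anaphase-promoting complex, measured 79.7 and 49.6 CPM in WT and 47.6, 42.9, 6.71 and 9.16 CPM in *Cebpb*ΔM. *Aurkb*, the kinase of the chromosomal passenger complex, measured 34.8 and 28.1 CPM in WT and 27.7, 15.4, 3.49 and 7.86 CPM in *Cebpb*ΔM. In all 3 genes *Cebpb*ΔM 4 came within reach of WT 5, and *Cebpb*ΔM 6 and 7 lay far below. Their log2 fold changes of −1.72 ± 0.97, −1.28 ± 0.72 and −1.21 ± 0.64 did not pass the QL test (adjusted P = 0.662, 0.662 and 0.645). *Ccnf*, an F-box protein with a cyclin fold, measured 13.8 and 14.1 CPM in WT and 11.6, 7.32, 5.88 and 2.60 CPM in *Cebpb*ΔM, a log2 fold change of −1.03 ± 0.49 (adjusted P = 0.600 in the QL test).

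The markers most often used to count cycling cells did not separate the genotypes. *Mki67*, the gene of the proliferation antigen Ki-67, measured 30.8 and 14.3 CPM in WT macrophages and 33.4, 18.2, 6.05 and 4.08 CPM in *Cebpb*ΔM. *Top2a*, the topoisomerase that untangles sister chromatids, measured 46.7 and 13.1 CPM in WT and 39.99, 29.1, 6.54 and 3.90 CPM in *Cebpb*ΔM. *Cebpb*ΔM 4 and 5 lay within or near the WT range for both, and *Cebpb*ΔM 6 and 7 lay below it. The log2 fold changes over all 6 libraries were −0.54 ± 0.75 and −0.59 ± 0.87, and with replicates 4 and 5 alone they were 0.20 and 0.22. *Cdk1*, the kinase of mitotic entry, measured 40.7 and 13.5 CPM in WT and 20.3, 17.1, 1.33 and 4.39 CPM in *Cebpb*ΔM. *Ccnb1*, the gene of cyclin B1, measured 33.5 and 20.4 CPM in WT and 27.8, 19.7, 1.33 and 0.804 CPM in *Cebpb*ΔM, the largest ratio of *Cebpb*ΔM 4 and 5 to 6 and 7 among the 44 genes, at 22.2. *Kif11*, the kinesin that pushes spindle poles apart, had a count of 0 in *Cebpb*ΔM 6, where 3 counts would be 0.157 CPM by depth alone. It had 18, 10.1 and 2.35 CPM in *Cebpb*ΔM 4, 5 and 7, against 13.9 and 11.8 CPM in WT.

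*Cenpa* varied least of the mitotic genes among the 6 macrophage libraries. *Cenpa*, the histone variant that marks centromeres, measured 40.5 and 37.0 CPM in WT and 38.1, 41.5, 30.8 and 34.0 CPM in *Cebpb*ΔM, a log2 fold change of −0.10 ± 0.19. *Kif23*, a kinesin of the central spindle, was the single mitotic gene above 0, at 18.1 and 13.5 CPM in WT and 19.4, 29.7, 18.7 and 10.8 CPM in *Cebpb*ΔM (log2 fold change 0.32 ± 0.38). The groups overlapped in both genes. The remaining 10 mitotic genes (*Ccna2*, *Bub1*, *Cenpe*, *Cenpf*, *Kif20a*, *Nusap1*, *Tpx2*, *Birc5*, *Ube2c* and *Prc1*) had log2 fold changes of −1.49 to −0.34 with overlapping groups.

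*Cebpb*ΔM libraries 6 and 7 stood apart from 4 and 5, the replicate numbers that both genotypes share. Both were below *Cebpb*ΔM 4 and 5 for 24 of 24 mitotic genes, 9 of 11 replication genes and 5 of 9 others, against 21.1% of all genes. The ratio of the mean of *Cebpb*ΔM 4 and 5 to that of 6 and 7 had a median of 5.6 over the mitotic genes (1.23 for *Cenpa* to 22.2 for *Ccnb1*), 1.92 over the replication genes (1.04 for *Pcna* to 5.29 for *Rrm2*) and 1.73 over the others (1.03 for *E2f1* to 11.1 for *Pclaf*). On the WT side, library 4 was the highest of the 6 for 16 of 24 mitotic and 8 of 11 replication genes, against 19.4% of all genes. With replicates 4 and 5 alone, the median log2 fold change was −0.20 for mitotic, −0.08 for replication and 0.06 for other genes, and without WT 4 the medians were −0.45, −0.10 and 0.12. In the comparison of replicates 4 and 5 alone, 6 genes were lower at an unadjusted P under 0.05, the same 6 genes as with all libraries, against 3.83% of all genes, and 0 genes passed an adjusted P of 0.05 in the QL test.

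**Figure D2:**
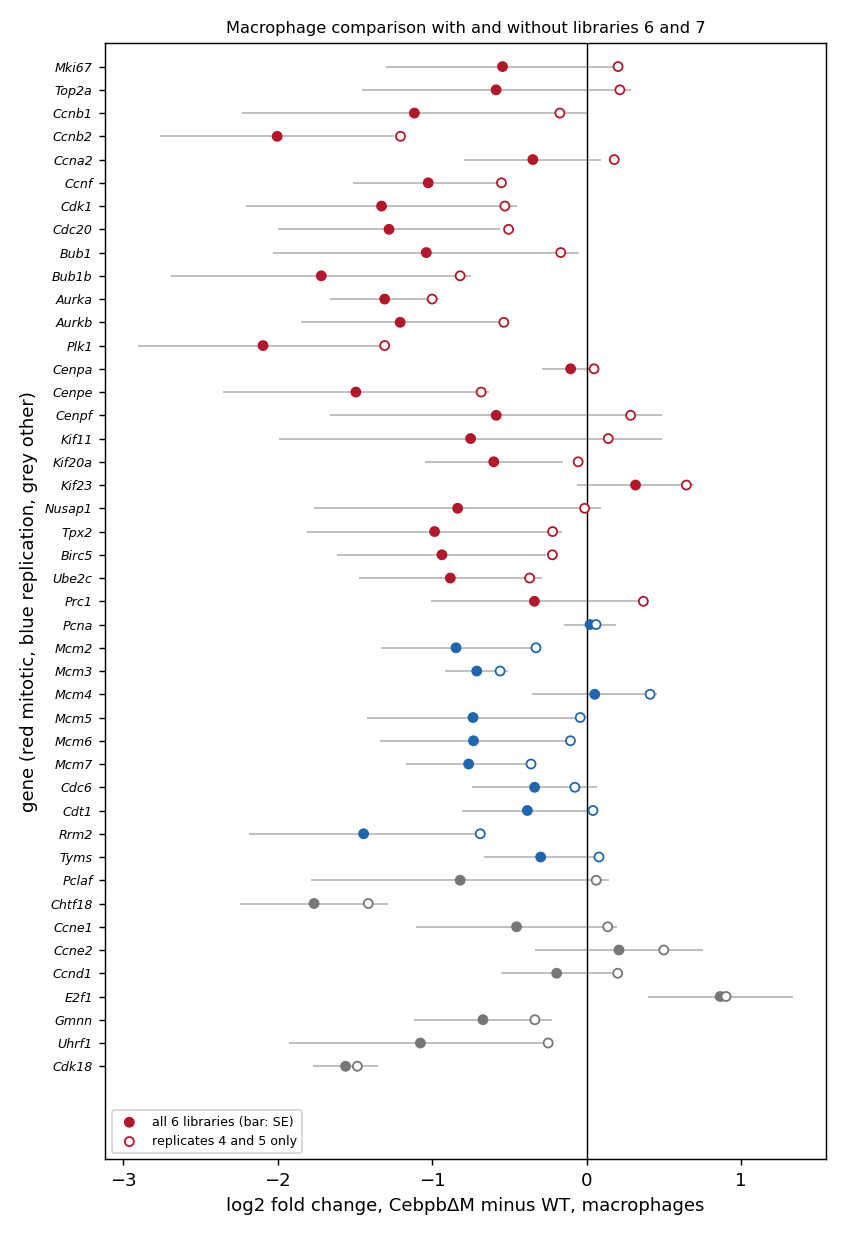
Log2 fold change of each gene in macrophages, *Cebpb*ΔM minus WT, on the horizontal axis, with genes on the vertical axis. Filled points use all 6 libraries (bars, SE) and open points use replicates 4 and 5 only. Open points lie nearer to 0 than filled ones for most mitotic genes, while *Cdk18* (−1.56 and −1.48) and *Chtf18* (−1.76 and −1.41) stay below −1.

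Marker genes of several cell types differed among the macrophage libraries as well. Of the 18 epithelial markers, 5 were lower in all *Cebpb*ΔM than in both WT macrophage libraries, against 9.08% of all genes, and 0 were higher. In *Cebpb*ΔM 6 and 7, 9 were lower than in 4 and 5, against 21.1% of all genes, while 1 was higher. The summed epithelial level was 11662 and 11208 CPM in WT 4 and 5 and 8764, 6782, 6310 and 7594 CPM in *Cebpb*ΔM 4 to 7. *Krt5*, a keratin of basal epithelial cells, measured 42.5 and 12.4 CPM in WT and 146, 83.9, 33.4 and 6.74 CPM in *Cebpb*ΔM, and *Csn2*, a milk protein gene, measured 245 CPM in *Cebpb*ΔM 4, 17.2 CPM in *Cebpb*ΔM 5 and at most 0.555 CPM in the others. Of the 15 macrophage markers, 8 were higher in all *Cebpb*ΔM than in both WT libraries, against 9.67% of all genes. In *Cebpb*ΔM 6 and 7, 8 were higher than in 4 and 5 while 1 was lower, the latter against 21.1% of all genes. The share of all genes that were higher in 6 and 7 was not computed, so counts in that direction have no background here. Summed levels in *Cebpb*ΔM against WT were 28.5 to 33.4 against 16.2 to 18.5 CPM for 12 T and NK cell markers, 280.3 to 427 against 181 to 191 CPM for 9 B and plasma cell markers and 163 to 226 against 116 to 144 CPM for 9 dendritic cell markers. The B and plasma cell and the dendritic cell sums were higher in *Cebpb*ΔM 6 and 7 than in 4 and 5. *Ighm* made up most of the former, at 172 and 186 CPM in WT and 274, 265, 334 and 419 CPM in *Cebpb*ΔM. Only 1 of 9 B and plasma cell, 2 of 9 dendritic cell and 2 of 12 T and NK cell markers were above WT in all *Cebpb*ΔM libraries. This compares with 9.67% of all genes. In *Cebpb*ΔM 6 and 7, 2 B and plasma cell markers were higher than in 4 and 5 and 4 were lower, the latter against 21.1% of all genes. The sums of fibroblast and adipocyte, endothelial and pericyte, granulocyte and mast cell, and erythroid markers overlapped between the genotypes. With the mean log2 level of the epithelial markers as a covariate, the median log2 fold change was −1.53 for mitotic, −0.75 for replication and −0.74 for other genes. This mean weighs every marker alike, including *Krt5* and *Csn2*, which were highest in *Cebpb*ΔM 4. It differs from the summed level, so the fit is not an adjustment for the lower sum in *Cebpb*ΔM. In the fit with this covariate 29 of the 44 genes were lower at an unadjusted P under 0.05, against 5.05% of all genes, and none passed an adjusted P of 0.05. The part of these other cells in the values of the 44 genes was not tested.

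Replication genes spread less among the macrophage libraries than mitotic genes. The ratio of the highest to the lowest library had a median of 3.42 over the replication genes and 11.9 over the mitotic genes. *Pcna* measured 111 and 85.3 CPM in WT and 105, 98.4, 103 and 92.5 CPM in *Cebpb*ΔM, a log2 fold change of 0.02 ± 0.17. *Mcm3*, a subunit of the replicative helicase, measured 90.5 and 68.9 CPM in WT and 52.4, 54.9, 49.5 and 37.8 CPM in *Cebpb*ΔM. It was the single replication gene without overlap between the groups, with a log2 fold change of −0.71 ± 0.20 (unadjusted P = 0.00806, adjusted P = 0.484 in the QL test). Its value with replicates 4 and 5 alone was −0.56.

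The other helicase subunits did not follow *Mcm3* closely. *Mcm5* measured 93.5 and 39.5 CPM in WT and 69.7, 58.9, 9.76 and 21.3 CPM in *Cebpb*ΔM, and *Mcm6* measured 132 and 47.1 CPM in WT and 88.3, 77.2, 22.7 and 27 CPM in *Cebpb*ΔM. *Mcm2* measured 88.8 and 37.6 CPM in WT and 56.6, 43.6, 20.7 and 19.7 CPM in *Cebpb*ΔM. For these subunits WT 5 lay below *Cebpb*ΔM 4 and 5, so the groups overlapped, and the log2 fold changes were −0.74 ± 0.69, −0.73 ± 0.60 and −0.85 ± 0.49. *Mcm4* (0.05 ± 0.40) and *Mcm7* (−0.76 ± 0.40) overlapped as well. *Rrm2*, the small subunit of ribonucleotide reductase, had the most negative log2 fold change of the replication genes. It measured 53.1 and 22.3 CPM in WT and 28.8, 17.7, 3.66 and 5.13 CPM in *Cebpb*ΔM (log2 fold change −1.44 ± 0.74, adjusted P = 0.637 in the QL test). The loading factors *Cdc6* and *Cdt1* and the thymidylate synthase gene *Tyms* had log2 fold changes of −0.34, −0.38 and −0.30, each smaller than its SE of 0.40, 0.42 and 0.37.

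*Cdk18* had the smallest P of the 44 genes in macrophages, with values close together within each genotype. This cyclin-dependent kinase of the PCTAIRE group measured 26.5 and 27.6 CPM in WT and 9.06, 10.1, 9.21 and 8.29 CPM in *Cebpb*ΔM. Means were 27.1 ± 0.740 CPM (SD, n = 2) and 9.17 ± 0.754 CPM (SD, n = 4), a log2 fold change of −1.56 ± 0.21. The adjusted P was 0.452 in edgeR's QL test, 0.00022 in edgeR's likelihood ratio test and 4.09e-06 in DESeq2, and over all alternatives run the log2 fold change stayed between −1.61 and −1.48. Exons of *Cdk18* overlap those of *Gm29629* on the opposite strand. *Chtf18*, which helps load *Pcna* at replication forks, measured 14.3 and 16.5 CPM in WT and 3.66, 7.82, 4.77 and 1.86 CPM in *Cebpb*ΔM, again with no overlap between the groups. Its log2 fold change was −1.76 ± 0.48 (unadjusted P = 0.00589, adjusted P = 0.468 in the QL test), and its exons overlap those of *Gng13* on the opposite strand.

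Other genes of the G1 to S step had no common direction in macrophages. *E2f1*, a transcriptional activator of replication genes, measured 3.93 and 13.8 CPM in WT and 16.4, 16.4, 12.3 and 19.6 CPM in *Cebpb*ΔM, a log2 fold change of 0.86 ± 0.47 with WT 5 inside the *Cebpb*ΔM range. *Uhrf1*, which maintains DNA methylation behind the fork, measured 56.0 and 28.5 CPM in WT and 36.1, 34.6, 2.88 and 6.43 CPM in *Cebpb*ΔM, a spread like that of the mitotic genes. *Pclaf*, a *Pcna*-binding protein, had log2 fold change −0.82 ± 0.97 and *Gmnn*, the inhibitor of *Cdt1*, −0.67 ± 0.45. The cyclin genes *Ccne1*, *Ccne2* and *Ccnd1* measured −0.45 ± 0.65, 0.21 ± 0.54 and −0.19 ± 0.36 on the log2 scale. All of these had overlapping groups.

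**Figure D3:**
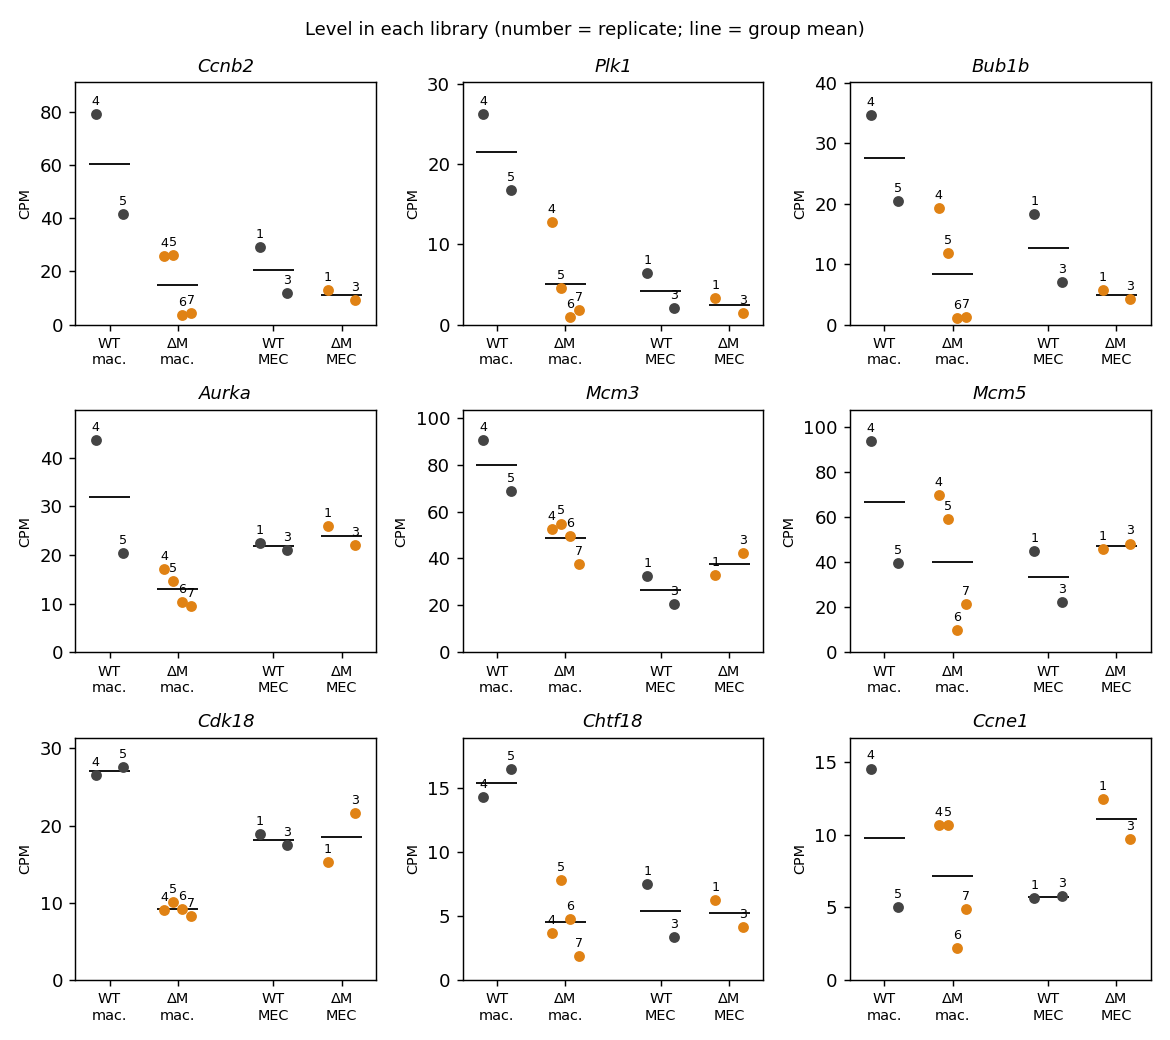
Level in CPM (vertical axes, starting at 0) of 9 of the genes in each library, grouped on the horizontal axes as WT and *Cebpb*ΔM macrophages and WT and *Cebpb*ΔM MECs. Points are libraries with their replicate number (dark WT, orange *Cebpb*ΔM), and lines are group means. *Cdk18* lies at 26.5 to 27.6 CPM in WT macrophages and 8.29 to 10.1 CPM in *Cebpb*ΔM macrophages, and *Bub1b* is highest in library 1 among the WT MECs.

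In MECs, mitotic genes had lower values and replication genes had slightly higher values in *Cebpb*ΔM. Of the 24 mitotic genes, 22 were below 0 on the log2 scale with a median of −0.71, and of the 11 replication genes, 9 were above 0 with a median of 0.20. The 9 others had a median of −0.15, and the median over all 15698 genes tested was −0.01. None of the 44 passed an adjusted P of 0.05 in the QL test, where 0.051% of all genes passed, or in the likelihood ratio test or DESeq2, where 1.14% and 1.03% passed. At an unadjusted P under 0.05, 8 mitotic genes were lower (*Bub1b*, *Nusap1*, *Birc5*, *Ccnb1*, *Ccnb2*, *Cenpf*, *Tpx2* and *Cenpa*), against 1.43% of all genes, and *Ccne1* was higher, against 3.99%. The groups did not overlap for 5 genes lower in *Cebpb*ΔM (*Bub1b*, *Nusap1*, *Birc5*, *Cenpf* and *Prc1*) and for 7 higher (*Mcm2* to *Mcm7* and *Ccne1*), where 13.3% and 15.4% of all genes had such patterns. For the 44 genes together, these numbers are close to the shares over all genes.

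The mitotic difference in MECs rested on WT library 1. It was the highest of the 4 MEC libraries for 23 of 24 mitotic genes, against 23.7% of all genes, while *Cebpb*ΔM 3 was the lowest for 16 of 24, against 26% of all genes. *Bub1b* measured 18.3 and 6.98 CPM in WT MECs 1 and 3 and 5.68 and 4.21 CPM in *Cebpb*ΔM 1 and 3. *Nusap1*, a microtubule-bundling protein of the spindle, measured 11.3 and 4.69 CPM in WT and 3.42 and 3.34 CPM in *Cebpb*ΔM. WT 1 was more than any other library by a wide margin in both genes, and WT 3 was close to *Cebpb*ΔM. The log2 fold changes were −1.35 ± 0.42 for *Bub1b* and −1.24 ± 0.41 for *Nusap1* (adjusted P = 0.412 and 0.511 in the QL test). Without WT 1 the median over the mitotic genes was 0.01, with 11 of 24 genes below 0, and without WT 3 it was −1.20.

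Of the 24 mitotic genes, 19 had overlapping groups in MECs. *Ccnb1* measured 21.4 and 7.18 CPM in WT and 8.87 and 4.10 CPM in *Cebpb*ΔM, with a log2 fold change of −1.14 ± 0.49. *Ccnb2* measured 29.1 and 12 CPM in WT and 13 and 9.22 CPM in *Cebpb*ΔM (−0.89 ± 0.38). WT 3 lay below *Cebpb*ΔM 1 in both cyclins, so the groups overlapped. *Birc5*, the survivin gene, measured 14.9 and 7.99 CPM in WT and 6.99 and 5.92 CPM in *Cebpb*ΔM (−0.82 ± 0.34). *Mki67* measured 16.7 and 6.40 CPM in WT and 5.3 and 8.95 CPM in *Cebpb*ΔM, and its log2 fold change of −0.70 ± 0.43 had overlapping groups. *Aurka*, which did not overlap between the macrophage genotypes, measured 22.5 and 21.0 CPM in WT MECs and 25.9 and 22 CPM in *Cebpb*ΔM MECs (0.14 ± 0.24), and *Ccna2*, the gene of cyclin A2, had a log2 fold change of 0.01 ± 0.25.

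All 6 helicase subunit genes were higher in both *Cebpb*ΔM MECs than in both WT MECs, a pattern that 15.4% of all genes had. *Mcm3* measured 32.6 and 20.4 CPM in WT and 32.9 and 42.2 CPM in *Cebpb*ΔM, *Mcm2* measured 37.9 and 26.6 CPM in WT and 44.1 and 46.0 CPM in *Cebpb*ΔM, and *Mcm5* measured 45 and 22.1 CPM in WT and 45.9 and 48.2 CPM in *Cebpb*ΔM. In *Mcm3* and *Mcm5*, WT 1 was close to *Cebpb*ΔM 1 and WT 3 was the low library. Their log2 fold changes were 0.50 ± 0.27, 0.48 ± 0.24 and 0.49 ± 0.30, with an unadjusted P of 0.0908, 0.0678 and 0.134 in the QL test. *Mcm4*, *Mcm6* and *Mcm7* had smaller differences of 0.13 ± 0.20, 0.25 ± 0.20 and 0.27 ± 0.21. WT 3 was the lowest MEC library for 7 of 11 replication genes, against 21.7% of all genes. *Pcna* measured 94.0 and 106 CPM in WT and 96.9 and 93.1 CPM in *Cebpb*ΔM, a log2 fold change of −0.08 ± 0.20. *Rrm2*, *Tyms*, *Cdc6* and *Cdt1* had log2 fold changes of −0.07 to 0.20 with overlapping groups.

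*Ccne1* had the largest positive difference of the 44 genes in MECs. The gene of cyclin E1, the partner of Cdk2 at the start of S phase, measured 5.62 and 5.78 CPM in WT and 12.5 and 9.71 CPM in *Cebpb*ΔM, a log2 fold change of 0.96 ± 0.29. Its WT libraries were nearly equal, and the groups did not overlap, as for 15.4% of all genes in this direction. The unadjusted P was 0.007 and the adjusted P 0.39 in the QL test, and the adjusted P over all alternatives run ranged from 0.0939 to 1.0. *Cdk18* did not separate the MEC groups, at 18.9 and 17.4 CPM in WT and 15.3 and 21.6 CPM in *Cebpb*ΔM (0.03 ± 0.26). The other members *Pclaf*, *Chtf18*, *Ccne2*, *Ccnd1*, *E2f1*, *Gmnn* and *Uhrf1* had log2 fold changes of −0.46 to 0.08 with overlapping groups.

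Set against each other within a library, replication genes were above mitotic genes by an amount that differed between libraries. The mean log2 CPM of the 11 replication genes minus that of the 24 mitotic genes was 0.99 and 0.97 in WT macrophages 4 and 5, and 0.91, 1.34, 2.25 and 2.48 in *Cebpb*ΔM macrophages 4 to 7. In MECs it was 0.91 and 1.66 in WT 1 and 3 and 1.98 and 2.24 in *Cebpb*ΔM 1 and 3. Both *Cebpb*ΔM MECs were above both WT MECs, whereas *Cebpb*ΔM macrophage 4 was below both WT macrophages. The genotype difference was 0.82 in MECs and 0.77 in macrophages, and the SD within groups was 0.40 and 0.64. No test was made, because genes are not replicates of a condition.

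In macrophages the larger gap came with low levels of both lists. The mean log2 CPM of the mitotic genes was 4.86 and 4.05 in WT. It was 4.49 and 3.96 in libraries 4 and 5 of *Cebpb*ΔM, against 1.90 and 1.87 in libraries 6 and 7, while that of the replication genes was 5.85 and 5.01, 5.40 and 5.31, and 4.15 and 4.34 in the same order. In MECs the mitotic mean was 4.10 and 3.02 in WT and 3.07 and 2.88 in *Cebpb*ΔM, and the replication mean was 5.01 and 4.68 in WT and 5.05 and 5.12 in *Cebpb*ΔM. The MEC libraries other than WT 1 were close to each other for mitotic genes.

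**Figure D4:**
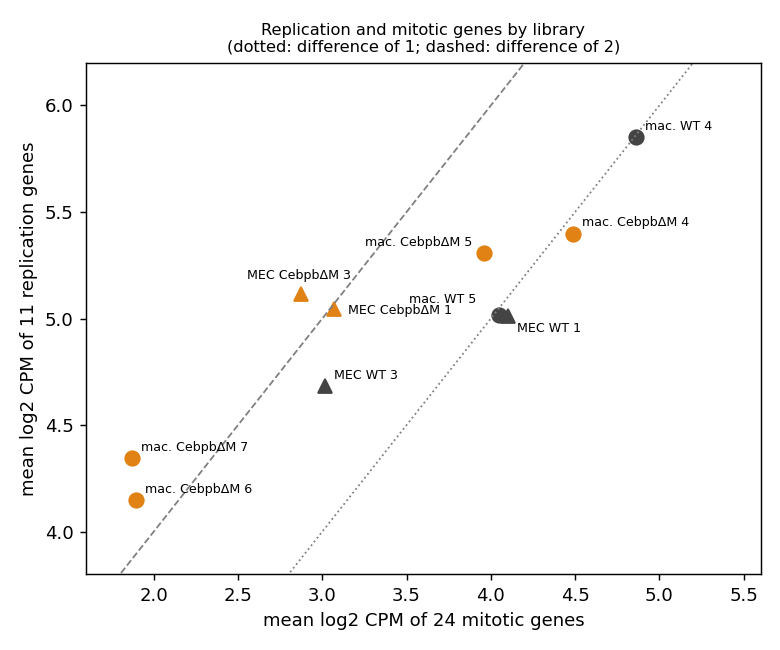
Mean log2 CPM of the 11 replication genes (vertical axis) against that of the 24 mitotic genes (horizontal axis), with 1 point per library, circles for macrophages, triangles for MECs, dark for WT and orange for *Cebpb*ΔM. The dotted and dashed lines mark a difference of 1 and 2. *Cebpb*ΔM macrophages 6 and 7 lie at 1.90 and 1.87 on the mitotic axis, below all other libraries, and WT MEC 1 lies at 4.10, beside WT macrophage 5.

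The genotype difference was compared between the cell types as an interaction over all 10 libraries, and none of the 44 genes passed an adjusted P of 0.05 in the QL test, where 0% of all genes passed. At an unadjusted P under 0.05, 3 genes had a more negative difference in macrophages, against 1.9% of all genes, and 0 had a more positive one, against 3.29%. These were *Cdk18* (−1.54 ± 0.31, adjusted P = 0.648 in the QL test), *Mcm3* (−1.16 ± 0.37, adjusted P = 0.923) and *Aurka* (−1.40 ± 0.49, adjusted P = 0.923). *Cdk18* passed in edgeR's likelihood ratio test (adjusted P = 0.0257, where 0.289% of all genes passed) and in DESeq2 (adjusted P = 0.0183, where 0.147% passed). The median interaction was −0.94 for replication genes, with 10 of 11 below 0, and −0.10 for mitotic genes, with 15 of 24 below 0, beside 0.04 over all genes.

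**Figure D5:**
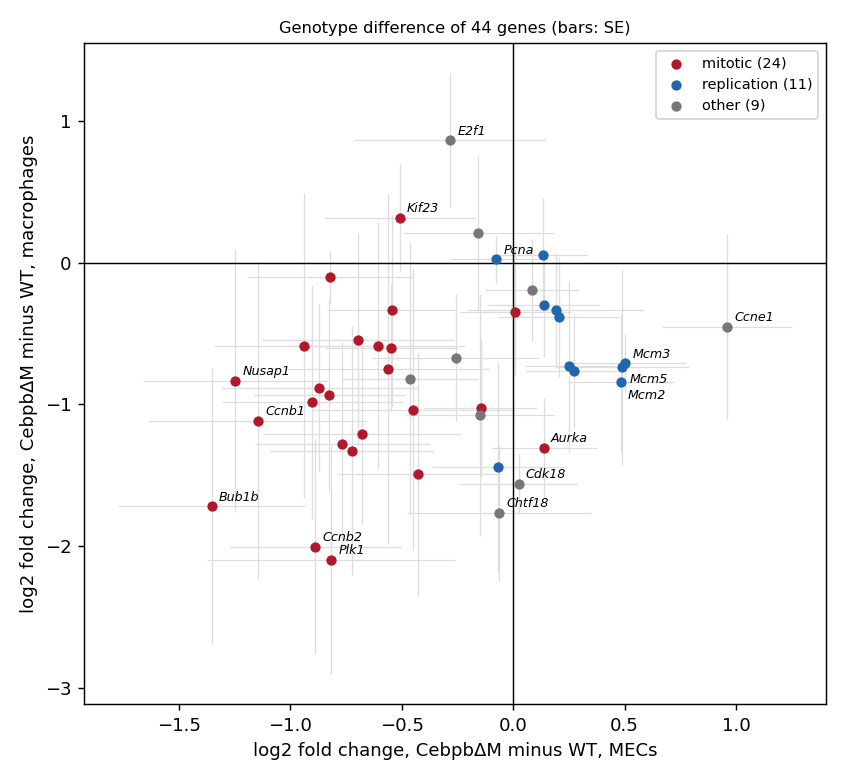
Log2 fold change of the 44 genes, *Cebpb*ΔM minus WT, in MECs (horizontal axis) and macrophages (vertical axis), with SE bars. Mitotic genes lie mostly below 0 on both axes, and most replication genes lie above 0 in MECs and below 0 in macrophages. *Cdk18* (0.03 and −1.56) and *Ccne1* (0.96 and −0.45) stand away from the other genes.

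Between the cell types, few of these genes passed the test. In WT, macrophages had higher levels than MECs of 3 of the 44 genes in the QL test, where 25.5% of all 18323 genes were called. These were *Mcm3* at 20.3 ± 3.93 RPKM in macrophages and 7.47 ± 2.51 RPKM in MECs (SD, n = 2 each), a log2 fold change of 1.44 ± 0.28 (adjusted P = 0.00366), *E2f1* at 2.69 ± 2.12 and 0.700 ± 0.207 RPKM (1.94 ± 0.52, adjusted P = 0.0186) and *Cenpa* at 6.33 ± 0.411 and 2.91 ± 1.51 RPKM (1.12 ± 0.35, adjusted P = 0.0375). *E2f1* and *Cenpa* did not pass when the 4 WT libraries were fitted alone (adjusted P = 0.0694 and 0.0645 in the QL test). Without WT macrophage 5 the log2 difference of *E2f1* was 0.81 (adjusted P = 0.200 in the QL test), and without WT MEC 3 that of *Cenpa* was 0.67 (adjusted P = 0.237). The median log2 difference was 0.72 for mitotic, 0.65 for replication and 0.63 for other genes, beside 0.06 over all genes.

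In *Cebpb*ΔM, 6 of the 44 genes differed between the cell types, where 33.7% of all genes were called. *E2f1* (5.0 ± 0.909 RPKM in macrophages, n = 4, and 0.566 ± 0.0530 RPKM in MECs, n = 2), *Cenpa* (5.99 ± 0.760 and 1.63 ± 0.542 RPKM) and *Kif23* (2.42 ± 0.953 and 0.944 ± 0.0553 RPKM) were higher in macrophages, by 3.14 ± 0.51, 1.88 ± 0.33 and 1.36 ± 0.40 on the log2 scale. Their adjusted P in the QL test was 0.000743, 0.00129 and 0.0229. *Cdk18* (1.87 ± 0.154 and 4.02 ± 0.873 RPKM), *Ccnf* (0.854 ± 0.464 and 2.34 ± 0.216 RPKM) and *Aurka* (4.96 ± 1.38 and 9.86 ± 1.37 RPKM) were lower in macrophages, with log2 differences of −1.10 ± 0.20, −1.45 ± 0.41 and −0.99 ± 0.32 and an adjusted P of 0.0017, 0.0196 and 0.0327 in the QL test. Without *Cebpb*ΔM MEC 1 or 3, *Kif23*, *Ccnf* and *Aurka* did not pass (adjusted P of 0.0726 to 0.204 in the QL test), and *Aurka* did not pass without *Cebpb*ΔM macrophage 6 or 7 either (0.0707 and 0.076). Cell type cannot be told apart from the isolation and the sequencing experiment in these contrasts, and epithelial RNA in the macrophage libraries enters both.

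Further genes of the pathway, listed by function, had medians of the same sign as the members of their list. They were measured in the same libraries, and the lists were chosen with earlier results known, so this is not independent evidence. Of 54 other mitotic genes tested in MECs, 50 were below 0 with a log2 median of −0.48, and of 55 in macrophages, 45 were below 0 with a median of −0.68. Unadjusted P was under 0.05 for 9 of the 54 in MECs and 4 of the 55 in macrophages, all lower, against 1.43% and 3.67% of all genes. Those with the smallest P were *Hmmr* (−1.33) and *Kif2c* (−0.84) in MECs and *Gtse1* (−1.45), *Psrc1* (−0.93) and *Cdca3* (−1.68) in macrophages. Of 45 other replication genes, 32 were above 0 in MECs with a median of 0.07, beside −0.01 over all genes, among them *Gins1* (1.04) and *Ung* (0.45). In macrophages 36 were below 0 with a median of −0.40, among them *Lig1* (−1.19), *Mcm10* (−1.36) and *Tk1* (−1.28). Unadjusted P was under 0.05 for 1 of the 45 in MECs, higher, against 3.99% of all genes, and for 6 in macrophages, all lower, against 3.67%.

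Cell cycle inhibitors showed little difference as a list. Their median log2 fold change was −0.09 over 15 genes in MECs and −0.01 over 16 in macrophages. In MECs the groups did not overlap for 1 higher and 4 lower inhibitors, where 15.4% and 13.3% of all genes had such patterns. In macrophages 4 were higher and 0 lower without overlap, against 9.67% and 9.08% of all genes. *Tob1*, an antiproliferative factor, measured 52.9 and 65.1 CPM in WT MECs and 151 and 132 CPM in *Cebpb*ΔM MECs, so that the groups did not overlap, and its log2 fold change was 1.26 ± 0.21 (adjusted P = 0.0745 in the QL test). In macrophages, *Cdkn2c* (1.18 ± 0.37) and *Rb1* (0.64 ± 0.21), which hold cells in G1, were higher in all *Cebpb*ΔM libraries than in both WT libraries. The adjusted P of these genes was 0.508 and 0.521 in the QL test. *Tob1*, with a log2 fold change of 0.29 ± 0.17 in macrophages, had no overlap between the groups either. Other cyclin, CDK and E2F genes had medians of 0.15 in MECs and −0.15 in macrophages. Among them were *E2f5* (1.04 in macrophages and 0.57 in MECs), *Ccnd2* (0.62 in MECs), *Cdk6* (−0.27 in macrophages) and *Ccnd3* (−0.23 in macrophages). *Ccng1*, a cyclin gene kept with the inhibitors, had −0.22 in MECs. No gene of these lists passed an adjusted P of 0.05 in the QL test of either comparison.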

How the data were processed

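Per the labels and the study's methods, the authors trimmed the reads with Trimmomatic, mapped them to GRCm38 with HISAT2 and counted read pairs with featureCounts on the genes of Ensembl, reverse-stranded. What the authors deposited are raw whole-number counts of each gene in each library. The library kit is not stated to keep strand. For 19 genes lying inside exons of highly expressed genes on the opposite strand, the median read density was 211% of that gene. These genes may have reads of their own, so the density does not settle whether strand was kept. Reads of overlapping genes may therefore be mixed. Exons of 12 of the 44 genes overlap an exon of some gene on the opposite strand, whatever its level (*Ccna2*, *Cdc20*, *Plk1*, *Kif20a*, *Nusap1*, *Ube2c*, *Prc1*, *Mcm7*, *Chtf18*, *Ccne2*, *Ccnd1* and *Cdk18*).

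The tests covered genes of at least 300 nt that exceeded 1 CPM in 2 or more libraries, 15698 in MECs, 17772 in macrophages and 18323 over all 10 libraries. MECs and macrophages were fitted apart, using the QL test of edgeR 4.0.16 with TMM scaling under R 4.3.3, and *P*-values were adjusted by the BH method over all genes tested, with a threshold of 0.05. The likelihood ratio test that the study names, and DESeq2 1.42.0, were run as alternatives. Other alternatives were another scaling, other filters, a replicate block, 1 fit over all libraries, fewer libraries and an epithelial covariate. Log2 CPM used a prior count of 2. CPM and RPKM were computed here, and errors are SD for levels and SE for log2 fold changes. Scripts were tested on simulated data. The 44 genes, the pathway and marker lists and the motifs were chosen with earlier results of these data known. All 44 genes could be named. Of each pathway list, the 3 genes with the smallest *P* in macrophages and the 2 in MECs were named. *Krt5* and *Csn2* from the epithelial markers, and *Ighm* from the B and plasma cell markers, were chosen after their values were seen.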

Additional observations from a re-analysis of the deposited data

Results flagged for a closer look

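*Mcm3* was the gene whose genotype differences went opposite ways in every library of the cell types. It was higher in both *Cebpb*ΔM MECs (32.9 and 42.2 CPM) than in both WT MECs (32.6 and 20.4 CPM), and lower in all 4 *Cebpb*ΔM macrophage libraries (37.8 to 54.9 CPM) than in both WT macrophage libraries (90.5 and 68.9 CPM). The interaction was −1.16 ± 0.37 on the log2 scale, with an unadjusted *P* of 0.00871 and an adjusted *P* of 0.923 in edgeR's QL test, so the difference did not pass over all genes. The *Cebpb*ΔM 1 and WT 1 MEC libraries differed by less than the spread between the WT MECs. The summed epithelial marker level was 11208 to 11662 CPM in WT and 6310 to 8764 CPM in *Cebpb*ΔM macrophage libraries. Of 18 epithelial markers, 5 were lower in all *Cebpb*ΔM libraries, against 9.08% of all genes. Of 15 macrophage markers, 8 were higher in all of them, against 9.67% of all genes. Their part in the result was not tested.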

How the results depend on the processing

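Of the 44 genes, 1 was called in macrophages by the likelihood ratio test and 1 by DESeq2, and 1 by each in the interaction, *Cdk18* each time, against 0 in the QL test and in every other alternative of these comparisons. In MECs 0 were called under any alternative, although the count over all genes ranged from 0 with 1 fit over all 10 libraries to 337 without *Cebpb*ΔM 3 (179 in the likelihood ratio test, 161 in DESeq2, 38 without a filter on low counts, 2 without WT 3, 8 as reported). The genotype difference in the gap between replication and mitotic genes in MECs was 1.25 with medians over the genes and 0.82 with means. The cell type contrast called 1 to 4 of the 44 genes in WT and 3 to 8 in *Cebpb*ΔM when 1 library was left out. The lowest counts were 1 without WT macrophage 5 or WT MEC 3 and 3 without *Cebpb*ΔM MEC 1 or 3, and *Mcm3* in WT and *E2f1*, *Cenpa* and *Cdk18* in *Cebpb*ΔM were called throughout.

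The median over mitotic genes in MECs ranged from −1.20 to 0.0091 when 1 library was left out, the latter without WT 1, and 17 of the 27 changes of sign in MECs came without WT 1. The genes that changed sign in MECs were *Mki67* (−1.21 to 0.16), *Top2a* (−1.17 to 0.0076), *Ccna2* (−0.11 to 0.16), *Ccnf* (−0.27 to 0.016), *Cdc20* (−1.28 to 0.077), *Bub1* (−0.90 to 0.25), *Aurkb* (−1.27 to 0.40), *Plk1* (−1.52 to 0.26), *Cenpe* (−0.74 to 0.011), *Kif11* (−1.11 to 0.40), *Kif23* (−0.88 to 0.020), *Ube2c* (−1.43 to 0.10), *Pcna* (−0.16 to 0.032), *Cdc6* (−0.45 to 0.63), *Cdt1* (−0.17 to 0.50), *Rrm2* (−0.38 to 0.36), *Chtf18* (−0.51 to 0.62), *Ccne2* (−0.41 to 0.057), *Ccnd1* (−0.042 to 0.23), *E2f1* (−0.53 to 0.042), *Gmnn* (−0.52 to 0.095), *Uhrf1* (−0.59 to 0.53) and *Cdk18* (−0.25 to 0.25), each with the range over the fits without 1 library. In macrophages 11 of 18 changes of sign came without WT 4, and the genes were *Mki67* (−1.25 to 0.11), *Top2a* (−1.23 to 0.60), *Nusap1* (−1.56 to 0.43), *Ube2c* (−1.56 to 0.43), *Prc1* (−1.0 to 0.064), *Pcna* (−0.16 to 0.23), *Mcm4* (−0.46 to 0.85), *Mcm5* (−1.23 to 0.015), *Mcm6* (−1.29 to 0.19), *Tyms* (−0.69 to 0.23), *Ccne1* (−1.03 to 0.52), *Ccne2* (−0.32 to 0.48), *Ccnd1* (−0.52 to 0.14) and *Gmnn* (−1.18 to 0.12). In MECs *Ccna2* was −0.014 with 1 fit over all libraries, and in macrophages *Mcm4* was −0.029 with the epithelial covariate. With replicates 4 and 5 only, the replication median in macrophages was −0.076, and 12 genes changed sign, *Mki67* (0.20), *Top2a* (0.22), *Ccna2* (0.18), *Cenpa* (0.048), *Cenpf* (0.28), *Kif11* (0.14), *Prc1* (0.37), *Cdt1* (0.041), *Tyms* (0.080), *Pclaf* (0.062), *Ccne1* (0.14) and *Ccnd1* (0.20). The causes were not tested.

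Replicate numbers shared between genotypes mark no stated litter or day, and only 2 pairs exist in each experiment. Deviations of same-numbered libraries from their group means correlated across genes with r = 0.106 in MECs, and with 0.129 (replicate 4) and −0.0865 (replicate 5) in macrophages. With a replicate block, 0 of the 44 genes were called in either comparison or the interaction, while the calls over all genes were 205 in MECs, 12 in macrophages and 1 in the interaction. The median with the block was −0.61 for mitotic and 0.17 for replication genes in MECs, and −0.13 and 0.024 in macrophages, where *Cebpb*ΔM 6 and 7 have no partner and add nothing to the difference. In that fit 16 macrophage genes changed sign, *Mki67* (0.23), *Top2a* (0.45), *Ccna2* (0.18), *Bub1* (0.031), *Cenpa* (0.037), *Cenpf* (0.20), *Kif11* (0.077), *Nusap1* (0.23), *Prc1* (0.34), *Mcm5* (0.072), *Mcm6* (0.064), *Cdt1* (0.024), *Tyms* (0.14), *Pclaf* (0.16), *Ccne1* (0.32) and *Ccnd1* (0.19), and in MECs *Chtf18* was 0.0077. Depth limits several mitotic genes in *Cebpb*ΔM macrophages 6 and 7. Among them, *Kif11*, *Cenpf*, *Bub1* and *Ccnb1* had 0 and 38, 39 and 3, 18 and 8, and 24 and 13 counts there. *Plk1*, *Bub1b* and *Cenpe* had 18 and 29, 19 and 21, and 17 and 17 counts.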
